A study of Homo sapiens with 2 samples.

Results

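The chemokine ligands described here are CXCL1, CXCL2, CXCL3, CXCL8, CXCL10, CXCL16, CCL5, CCL20, CCL28 and CX3CL1, which are 10 of 56690 gene symbols in the table. They were taken by symbol, and all 10 had a row. The RNA-seq libraries were made from polyadenylated RNA of Tu212, an established epithelial line of head and neck squamous carcinoma. One library came from cells that had received the pEZ vector alone for 48 h, the vector control, and the other from cells that had received pEZ-PRMT5 for 48 h, called PRMT5 overexpression. Both carry the PRMT5 gene of the line itself. The sources used here do not say whether transfected cells were selected. With 1 library per group no difference below has a replicate check, and every value describes these libraries and not the condition. The ligands were chosen with these read counts in view, so their ratios are a description and carry no test.

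Chemokines are small secreted or membrane-bound proteins that steer leukocytes by binding G protein-coupled receptors. CXCL1, CXCL2, CXCL3 and CXCL8 carry the ELR motif, bind CXCR2 and draw neutrophils. CXCL10 and CCL5 draw T cells and natural killer cells, CCL20 and CCL28 serve mucosal surfaces, and CXCL16 and CX3CL1 are made as membrane-anchored proteins that proteases can release. In epithelial cells many of these genes are known to respond to NF-kB downstream of interleukin-1, tumour necrosis factor and Toll-like receptors. CXCL10 and CCL5 also respond to interferon regulatory factors.

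Of these genes, 5 hold the letters GGAATTTCC, a site known to bind NF-kB, in the 300 bases around their start site. The stretches are shown so that the letters these genes share can be compared. RefSeq promoters (GRCh38.p14, 250 bases before to 50 after the start) were found for 7 of the 10 genes. CCL5, CXCL16 and CX3CL1 had no entry. The first 4 stretches run from base 150 to base 1 before the RefSeq start, and that of CXCL10 from base 230 to base 81. Their positions are chr4:73869243-73869392 on the plus strand for CXCL1, chr4:74099196-74099345 on the minus strand for CXCL2, chr4:74038690-74038839 on the minus strand for CXCL3, chr4:73740419-73740568 on the plus strand for CXCL8 and chr4:76023578-76023727 on the minus strand for CXCL10. Each is written 5′ to 3′ along its gene. The deposited gene bounds of CXCL2, CXCL3 and CXCL8 begin upstream of the RefSeq start, so part of those stretches lies inside the bounds. Capitals mark matches on either strand to GGAATTTCC, to the AP-1 motif TGANTCA, to the interferon response motif GAAANNGAA and to TATAAA.
CXCL1: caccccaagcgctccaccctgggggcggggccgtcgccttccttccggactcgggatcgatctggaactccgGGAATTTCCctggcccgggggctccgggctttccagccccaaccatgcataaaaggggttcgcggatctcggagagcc
CXCL2: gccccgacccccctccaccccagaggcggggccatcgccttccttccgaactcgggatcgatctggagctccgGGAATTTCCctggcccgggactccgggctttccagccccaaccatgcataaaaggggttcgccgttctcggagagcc
CXCL3: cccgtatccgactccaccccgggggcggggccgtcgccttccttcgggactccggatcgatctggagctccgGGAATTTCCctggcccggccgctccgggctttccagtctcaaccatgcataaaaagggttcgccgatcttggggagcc
CXCL8: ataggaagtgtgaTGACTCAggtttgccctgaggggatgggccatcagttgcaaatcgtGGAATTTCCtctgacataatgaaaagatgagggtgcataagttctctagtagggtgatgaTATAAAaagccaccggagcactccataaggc
CXCL10: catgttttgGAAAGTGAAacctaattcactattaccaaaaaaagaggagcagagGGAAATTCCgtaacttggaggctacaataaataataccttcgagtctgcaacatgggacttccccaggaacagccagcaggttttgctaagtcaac

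The match to GGAATTTCC began 78 bases before the start in CXCL1 and CXCL3, 77 in CXCL2 and 91 in CXCL8. In CXCL10 it lay on the opposite strand, 176 bases before the start. Of 35116 promoter windows of this length in the RefSeq table, 0.461% held that motif. CXCL8 also held TGANTCA at 137 bases and TATAAA at 31 bases, which occur in 7.71% and 11.5% of windows. GAAANNGAA, found in 8.11% of windows, lay at 221 bases in CXCL10 and, upstream of the stretches shown, at 217 bases in CXCL2 and 233 in CXCL3. No match to one motif overlapped a match to another. CCL20 had a match to TATAAA at 29 bases, and CCL28 had no match in either of its windows. A match describes the letters and is not evidence of binding in these cells.

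The same 4 ELR genes also share letters at the other end of the transcript. The AU-rich nonamer TTATTTATT, written with T for U, is a known target of proteins that speed mRNA decay. In the 3′ untranslated region of the main coding transcript in GENCODE release 29 it occurred 3 times in CXCL1, 5 times in CXCL2, and once each in CXCL3, CXCL8, CCL28 and CX3CL1. CXCL10, CXCL16, CCL5 and CCL20 had 0. Matches that overlap were each counted, so these are not all separate sites. Among 13303 protein-coding genes that reached 10 reads in either library, 8.44% had the nonamer and 1.94% had 2 or more. The first occurrence is shown for the ELR genes in 30 bases of the transcript, with the nonamer in capitals. In CXCL1 and CXCL2, further matches that overlap it are left in lower case. They lie at chr4:73870674-73870703 (plus strand), chr4:74097589-74097618 (minus), chr4:74036772-74036801 (minus) and chr4:73742664-73742693 (plus) in GRCh38.
CXCL1: agtcttctatTTATTTATTtattcattagt
CXCL2: agtcttctatTTATTTATTtatttatttat
CXCL3: atgtcagttgTTATTTATTcaaattatctc
CXCL8: atgtaaagtaTTATTTATTtgaatctacaa

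The depth was 14119997 gene-assigned reads in the vector control and 19908258 with PRMT5 overexpression. PRMT5, the targeted arginine methyltransferase, had 2068 and 5770 reads, a log2 ratio of 1.01 (interval 0.94 to 1.09). Ratios are PRMT5 overexpression over vector control, on TMM-scaled log2 CPM (counts scaled to library size) with a prior count of 1. Intervals are 95% exact binomial (Clopper-Pearson) intervals of the reads and cover counting error only, not variation between libraries. They treat reads as independent, although reads are not independent molecules, so they can be too narrow. "Lower" and "higher" as counts mean at least 1.5-fold, and genes with fewer than 10 reads in both libraries were left out of counts. The epithelial markers KRT5, KRT14, KRT17, KRT6A, TP63, DSG3, CDH1 and EPCAM were all well read, with a summed level of 12010 CPM in the vector control library and 12935 CPM in the other.

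Of the 10 ligands, 9 passed the read floor. Of these 9, 5 were lower by 1.5-fold or more with PRMT5 overexpression, namely CXCL3, CCL5, CXCL8, CXCL10 and CXCL1, and 0 were higher. Over all 17777 genes past the floor, 5.33% were at least 1.5-fold lower and 7.06% higher. The median log2 ratio of the 9 was -0.68, and that of all genes past the floor 0.00. The ligands were chosen on this contrast, so nothing is read from the difference. At 2-fold the count was 2 of 9 lower, CXCL3 and CCL5, and 0 higher, where 1.94% of all genes were lower and 2.9% higher. With a floor of 50 reads 7 ligands were left, of which 4 were at least 1.5-fold lower and 0 higher, where 2.55% of genes were lower and 3.24% higher. CXCL1 and CXCL10, both at -0.68, lay just past the 1.5-fold line and so counted as lower, and CCL28 at -0.42 fell short of it. In bulk RNA, fewer cells that make a transcript and less transcript per cell cannot be told apart.

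**Figure D1:**
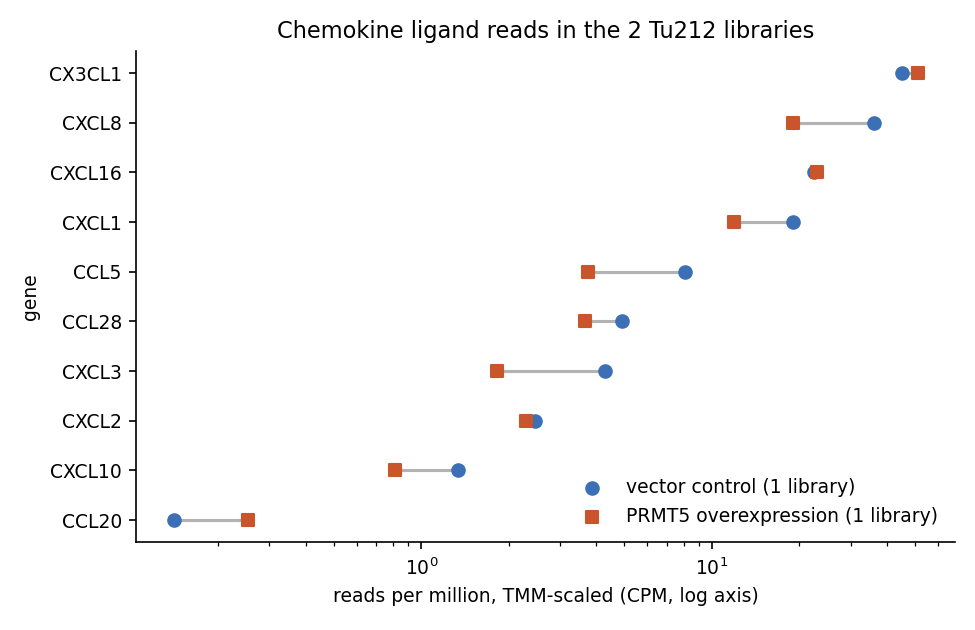
Level of each chemokine ligand in the vector control library (circles) and the PRMT5 overexpression library (squares), in TMM-scaled CPM on a log axis, with 1 library per group. CXCL8, CXCL1, CCL5, CXCL3 and CXCL10 lie to the left in the PRMT5 overexpression library, whereas CX3CL1 and CXCL16 are nearly level, at 51.0 against 45.2 CPM and 23.0 against 22.5 CPM.

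**Figure D2:**
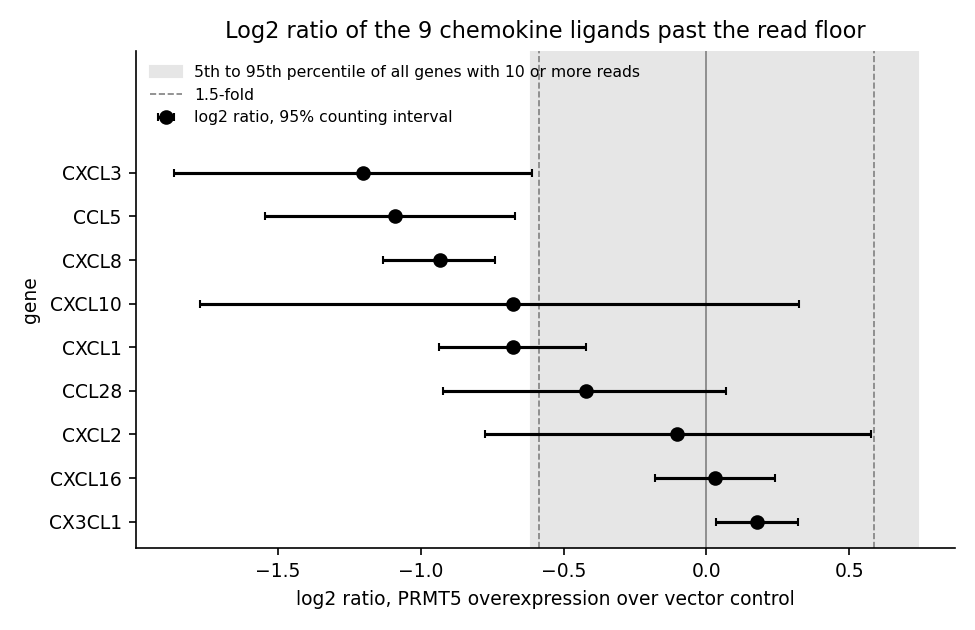
Log2 ratio of the 9 ligands past the read floor with 95% counting intervals (bars). The grey band holds the 5th to 95th percentile of all genes past the floor, -0.61 to 0.74, and the dashed lines mark 1.5-fold. CXCL3, CCL5 and CXCL8 lie furthest left, while the interval of CXCL10 spans 0.

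Some markers of other cell types that make chemokines were read, and some of these were lower beside the ligands. Of 8 leukocyte markers 2 passed the floor. All 8 summed to 21.9 CPM in the vector control library and 17.2 CPM in the other, most of it CD68, which is not confined to leukocytes. MS4A1 had 0 reads in both, PTPRC 0 and 4, and CD3E 6 and 0. ITGAM had 12 and 3 reads. Of 7 fibroblast markers 6 passed. All 7 summed to 98.9 and 82.0 CPM, most of it COL1A1 with 1321 and 1557 reads and a log2 ratio of -0.23. COL1A2, COL3A1 and DCN were lower, with 26 and 7, 11 and 2, and 12 and 0 reads. PDGFRB and MFAP5 lay within 1.5-fold, at -0.24 (25 and 29 reads) and 0.32 (12 and 21 reads), with intervals that span 0. Of 4 endothelial markers 2 passed. All 4 summed to 5.96 and 4.46 CPM, and CDH5 had 0 reads in both. The median log2 ratio of the markers past the floor was -1.20 for leukocytes, -1.21 for fibroblasts and -0.35 for endothelium, beside -0.68 for the ligands. No leukocyte or fibroblast marker lay near these medians. The leukocyte value is midway between ITGAM at -2.09 and CD68 at -0.30, and the fibroblast value between COL1A2 at -2.18 and PDGFRB at -0.24. With DCN at the 3 reads that a count of 0 allows, it stayed on the lower side, so the fibroblast median could not change. The part of these markers in the ligand ratios was not tested.

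Among the neutrophil-attracting ligands, CXCL8 (interleukin-8) had the most reads. CXCL8 (ENSG00000169429, chromosome 4, 73740506 to 73743716, plus strand) had 517 reads in the vector control and 374 in PRMT5 overexpression, or 36.3 and 19.0 CPM. Its log2 ratio was -0.93 (interval -1.13 to -0.74), which is 1.91-fold lower. The interval lies wholly beyond the 1.5-fold line, although the second library was deeper.

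CXCL1, a ligand first known as melanoma growth-stimulating activity (ENSG00000163739, chromosome 4, 73869393 to 73871242, plus strand), had 272 and 235 reads, or 19.1 and 11.9 CPM. The log2 ratio was -0.68 (interval -0.94 to -0.42). The interval excludes 0 but includes the 1.5-fold line, so the reads do not fix whether the difference reaches 1.5-fold. CXCL3 (ENSG00000163734, chromosome 4, 74036589 to 74038807, minus strand), a close paralogue, had 61 and 36 reads, or 4.28 and 1.83 CPM. It had the lowest ratio of the 9 ligands, at -1.20 with an interval of -1.86 to -0.61, or 2.30-fold lower.

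CXCL2, the remaining paralogue of this trio (ENSG00000081041, chromosome 4, 74097035 to 74099293, minus strand), had too few reads to tell whether it followed. It had 35 and 45 reads, or 2.45 and 2.28 CPM, with a log2 ratio of -0.10 (interval -0.77 to 0.58). The interval reaches past 1.5-fold on the lower side, so a difference of the size seen in CXCL1 was not detectable at this depth. CXCL3 held 63.5% of the summed reads of CXCL3 and CXCL2 in the vector control library (interval 53.1 to 73.1) and 44.4% in the other (33.4 to 55.9), so the intervals of this share overlap.

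The paralogues share some sequence, which bears on how their reads were divided. Of 50-base stretches taken every 10 bases along the main transcript, 5.71% of CXCL1, 7.69% of CXCL2 and 5.83% of CXCL3 occurred in transcripts of other genes, which were the other two genes of the trio. None of the stretches of CXCL8 did. Summed to 1 gene, which removes any division among them, CXCL1, CXCL2 and CXCL3 had 368 and 316 reads, with a log2 ratio of -0.68 (interval -0.91 to -0.47). The 4 ELR genes among the 10 ligands were together at 62.1 and 35.0 CPM, a log2 ratio of -0.83 (interval -0.97 to -0.68). This sum leaves out CXCL6, an ELR gene outside the 10, which was at 0.13.

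These genes lie in a cluster of CXC ligand genes on chromosome 4, and not all of its genes were lower. Measured between the lowest coordinates of the gene bounds, CXCL6 lies 96.0 kb from CXCL8, CXCL1 129 kb, CXCL3 298 kb and CXCL2 359 kb. CXCL6, another ELR ligand for neutrophils, had 113 and 171 reads, with a log2 ratio of 0.13 (interval -0.22 to 0.49). CXCL6 thus lies between CXCL8 and CXCL1 on the chromosome, and its interval spans 0 where theirs do not. The cluster genes PF4V1, PF4, PPBP and CXCL5 had 0 reads in both libraries. Shares within a library do not depend on scaling. CXCL8 held 82.1% of the reads of CXCL8 and CXCL6 in the vector control library (interval 78.8 to 85.0) and 68.6% in PRMT5 overexpression (64.5 to 72.5). CXCL1 held 70.6% against CXCL6 in the vector control (65.8 to 75.2) and 57.9% in the other library (52.9 to 62.7). In both pairs the intervals do not overlap, but CXCL8 and CXCL1 were chosen on these reads, so this is a description only.

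**Figure D3:**
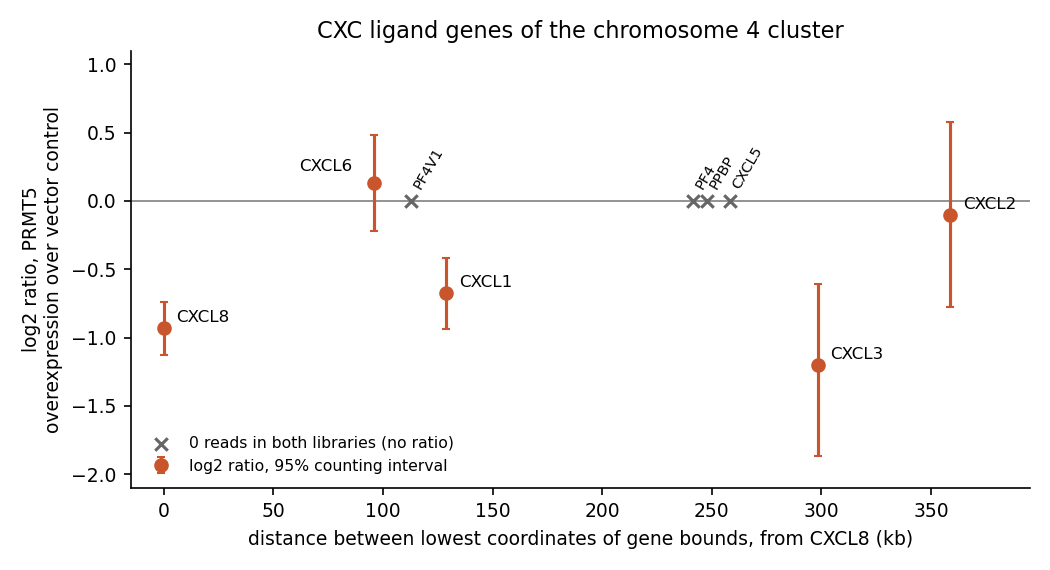
Log2 ratio of CXC ligand genes in the chromosome 4 cluster against the distance of each gene's lowest coordinate from that of CXCL8 in kb, with 95% counting intervals (bars), and crosses for genes with 0 reads in both libraries. CXCL8, CXCL1 and CXCL3 lie below 0, and CXCL6 and CXCL2 have intervals that span 0.

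Of the ligands for T cells and natural killer cells, CCL5 was clearly read. CCL5 (RANTES, ENSG00000271503, chromosome 17, 35871491 to 35880793, minus strand) had 115 and 74 reads, or 8.06 and 3.75 CPM. Its log2 ratio was -1.09 (interval -1.54 to -0.67), or 2.13-fold lower. Of its 50-base stretches, 16.7% occurred in transcripts of other genes, so some of its reads are uncertain.

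CXCL10 (IP-10, ENSG00000169245, chromosome 4, 76021117 to 76023497, minus strand) had 19 and 16 reads, or 1.33 and 0.812 CPM. The log2 ratio was -0.68, but the interval of -1.77 to 0.32 includes 0, so a difference in CXCL10 was not detectable at this depth. Its partner ligands for the receptor CXCR3 were hardly read, CXCL9 with 0 reads in both libraries and CXCL11 with 4 and 6. CCL5 held 85.8% of the summed reads of CCL5 and CXCL10 in the vector control (interval 78.7 to 91.2) and 82.2% in the other library (72.7 to 89.5).

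The mucosal ligands gave less. CCL28 (ENSG00000151882, chromosome 5, 43376645 to 43412391, minus strand), which draws cells that bear CCR10 or CCR3, had 70 and 72 reads, or 4.91 and 3.65 CPM. Its log2 ratio of -0.42 had an interval of -0.92 to 0.07, which includes both 0 and the 1.5-fold line. CCL20 (ENSG00000115009, chromosome 2, 227813842 to 227817564, plus strand), the ligand of CCR6, had 2 and 5 reads and did not pass the floor. The scaled ratio of its reads was 1.81, with a counting interval of 0.296 to 19.0, so these reads give no direction.

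The membrane-anchored ligands lay within 1.5-fold. CX3CL1 (fractalkine, ENSG00000006210, chromosome 16, 57372458 to 57385048, plus strand), which tethers cells that bear CX3CR1, had 644 and 1006 reads, or 45.2 and 51.0 CPM. Its log2 ratio was 0.18 (interval 0.03 to 0.32), which is 1.13-fold higher and well short of 1.5-fold. CXCL16 (ENSG00000161921, chromosome 17, 4733526 to 4739922, minus strand), the ligand of CXCR6 and a scavenger receptor for oxidised lipoprotein, had 321 and 453 reads, or 22.5 and 23.0 CPM. Its log2 ratio was 0.03 (interval -0.18 to 0.24), which excludes 1.5-fold either way. CXCL16 shares 85 exon bases with MED11 on the opposite strand, and summed with MED11 the log2 ratio was 0.07.

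The make-up of the ligand reads restates these ratios as shares within each library. The 10 genes together had 2056 reads in the vector control and 2316 in PRMT5 overexpression, or 144 and 117 CPM. The log2 ratio of this sum was -0.30 (interval -0.38 to -0.21). The 4 ELR genes among the 10 made up 43.0% of these reads in the vector control (interval 40.9 to 45.2) and 29.8% in the other library (27.9 to 31.7). CX3CL1 and CXCL16 made up 46.9% (44.8 to 49.1) and 63.0% (61.0 to 65.0). CXCL8 alone held 44.5% of the reads of CXCL8 and CX3CL1 in the vector control (41.6 to 47.4) and 27.1% in the other (24.8 to 29.5). The intervals of each of these 3 shares do not overlap between the libraries. The ligands were chosen on the same reads, so nothing is read from this. Within the ELR group, CXCL8 held 65.5% of the reads of CXCL8 and CXCL1 in the vector control (62.1 to 68.8) and 61.4% in the other (57.4 to 65.3), with intervals that overlap.

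Levels can be set between genes only per length, and the order depended on the length used. The deposited FPKM in the vector control library was 12.8 for CXCL8, 12.5 for CXCL1, 4.65 for CXCL16, 3.82 for CCL5 and 3.51 for CX3CL1. CXCL10, CXCL3, CXCL2 and CCL28 followed between 1.14 and 0.786, and CCL20 was lowest. For 9 of the 10 ligands, all but CCL20, the length behind the FPKM equalled the summed length of the distinct annotated exons, for instance 12993 bases for CX3CL1, whose main coding transcript (CX3CL1-201) has 3321. Overlapping exons of different isoforms are thus counted more than once, and genes with many isoforms receive a low FPKM.

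Per kilobase of the main coding transcript, the order in the vector control library was CXCL8 with an RPKM of 21.3 (reads per kilobase scaled to depth as CPM, interval 19.5 to 23.2), CXCL1 with 17.4 (15.4 to 19.6), CX3CL1 with 13.6 (12.6 to 14.7) and CXCL16 with 10.1 (9.05 to 11.3). CXCL8 and CXCL1 are neighbours whose intervals just overlap, whereas those of CXCL1, CX3CL1 and CXCL16 do not. CCL5 was at 5.91, CXCL3 at 3.98, CXCL2 at 2.02, CCL28 at 1.57, CXCL10 at 1.13 and CCL20 at 0.175. In the PRMT5 overexpression library CX3CL1 came to the top on this scale, at 15.4 (14.4 to 16.3). CXCL8 at 11.1, CXCL1 at 10.9 and CXCL16 at 10.3 followed with overlapping intervals. By deposited FPKM CX3CL1 had rank 4 in that library, so its place rests on the length chosen.

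**Figure D4:**
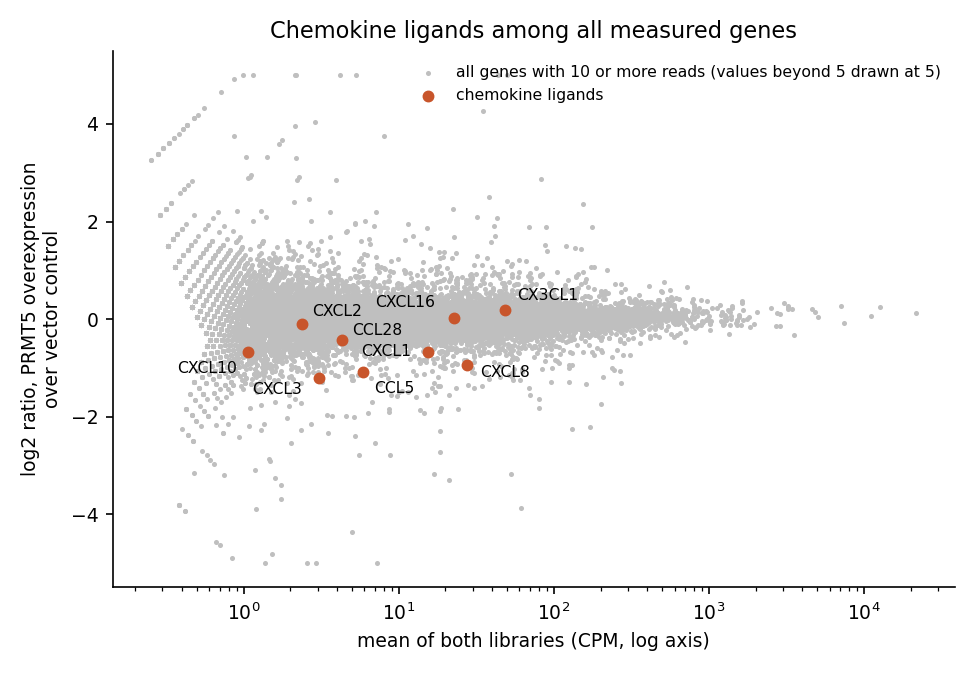
Log2 ratio against the mean level of both libraries in CPM (log axis) for all genes that reached 10 reads in either library (grey), with the 9 ligands past that floor in orange. Grey points spread widely at low levels; CXCL8, CCL5 and CXCL3 lie below most genes of their level, and CXCL16 and CX3CL1 lie inside the cloud.

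Chemokine ligands outside these 10 were mostly unread. Of 36 such genes in the table, 25 had 0 reads in both libraries and 5 passed the floor, with 0 of the 5 lower and 0 higher and a median log2 ratio of -0.05. CXCL14, a ligand made by resting squamous epithelium, had more reads than all 10 described genes together, with 4647 and 8148. Its log2 ratio was 0.34 (interval 0.29 to 0.40). CXCL14 made up 67.2% of the reads of all chemokine ligands in the vector control library (interval 66.0 to 68.3) and 75.8% in the other (75.0 to 76.6). CCL2, the monocyte ligand, had 50 and 47 reads, with a log2 ratio of -0.55 (interval -1.16 to 0.05). XCL1 and CCL26 were at -0.32 and -0.05, from 31 and 34 and from 9 and 12 reads.

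Receptors that would let the cells respond to these ligands were sparse. Of 23 chemokine receptor genes, 11 had 0 reads in both libraries and 4 passed the floor. CXCR1 had 0 reads in both, and CXCR2, the receptor of all ELR ligands, had 5 and 0. CX3CR1 and CCR6 also had 0 in both, CXCR6 had 2 and 2, and CXCR3 had 0. CCR10, which binds CCL28, had 47 and 54 reads, with a log2 ratio of -0.26 (interval -0.86 to 0.33). ACKR3, an atypical receptor that takes up CXCL12, was the best read, with 411 and 687 reads and a log2 ratio of 0.27. CXCR5, which binds CXCL13, was the single receptor past 1.5-fold, with 29 and 72 reads, a log2 ratio of 0.83 (interval 0.20 to 1.52).

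The proteases that release CXCL16 and CX3CL1 from the membrane were well read and close to level. ADAM10 had a log2 ratio of -0.16 (2005 and 2488 reads) and ADAM17 of -0.10 (2940 and 3799 reads). Of 6 measured genes in the wider list of proteases that release or trim chemokines, which also holds DPP4, MMP1, MMP2 and CTSB, 0 were 1.5-fold apart, and the median was -0.06.

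Upstream of the ligands, the NF-kB subunits and inhibitors all lay within 1.5-fold. All 12 were measured, 8 lay below 0 and the median was -0.21. RELA, the main activating subunit, was at 0.01, NFKB1 at -0.28 and REL at -0.29. Of the inhibitors and IkB-family genes, TNFAIP3 was at -0.30, BCL3 at -0.43 and NFKBIA at -0.20, whereas NFKBIB was at 0.40 (interval 0.05 to 0.75) and NFKBIZ at 0.13. Among 18 measured receptors and adaptors that lead to NF-kB, 2 were lower and 0 higher, with a median of -0.07. MYD88, the adaptor of interleukin-1 and Toll-like receptors, had 304 and 237 reads, or 21.3 and 12.0 CPM. Its log2 ratio was -0.82 (interval -1.08 to -0.58). TLR3, the sensor of double-stranded RNA, was at -0.64, with an interval of -1.02 to -0.27, while the kinase gene IRAK1 was at 0.51.

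Other secreted cytokines and NF-kB target genes were mixed. Of 18 measured, 3 were lower, 2 higher and 13 within 1.5-fold, with a median of -0.13. IL1B had 29 and 17 reads, with a log2 ratio of -1.18 (interval -2.19 to -0.33). PTGS2, the inducible cyclooxygenase, was at -0.70 and IL6 at -0.68, the latter from 19 and 16 reads with an interval that includes 0. TNF and IL23A were at 0.86 and 0.88 on few reads, and both intervals include 0. Among the better read genes of the list, IL1A was at -0.28 (interval -0.41 to -0.15) and BIRC3 at -0.53 (interval -0.82 to -0.25), whereas ICAM1 and SOD2 were at 0.00 and 0.09.

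The genes of the interferon pathway mostly lay within 1.5-fold. Of 20 measured genes, 1 was lower and 0 were higher, with a median of 0.08, 14 above 0 and 6 below. STAT2, which carries the interferon signal, was at 0.29, MX1 at 0.47 and IFIT1 at 0.40, whereas IFNGR1, a chain of the interferon gamma receptor, was at -0.36 and IFI27 was 2.00-fold lower. Of 9 proteins that bind or cut AU-rich mRNA, 0 were 1.5-fold apart and the median was -0.06. Among them ZFP36 (tristetraprolin) was at -0.45, ZC3H12A (regnase-1) at -0.20 and HNRNPD (AUF1) at -0.23. The decay factors ZFP36L1 and KHSRP were at 0.19 and 0.14, and ELAVL1 (HuR), which stabilises such mRNA, was at 0.20. The 12 expression reference genes had a median of -0.02, and 0 were 1.5-fold apart.

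**Figure D5:**
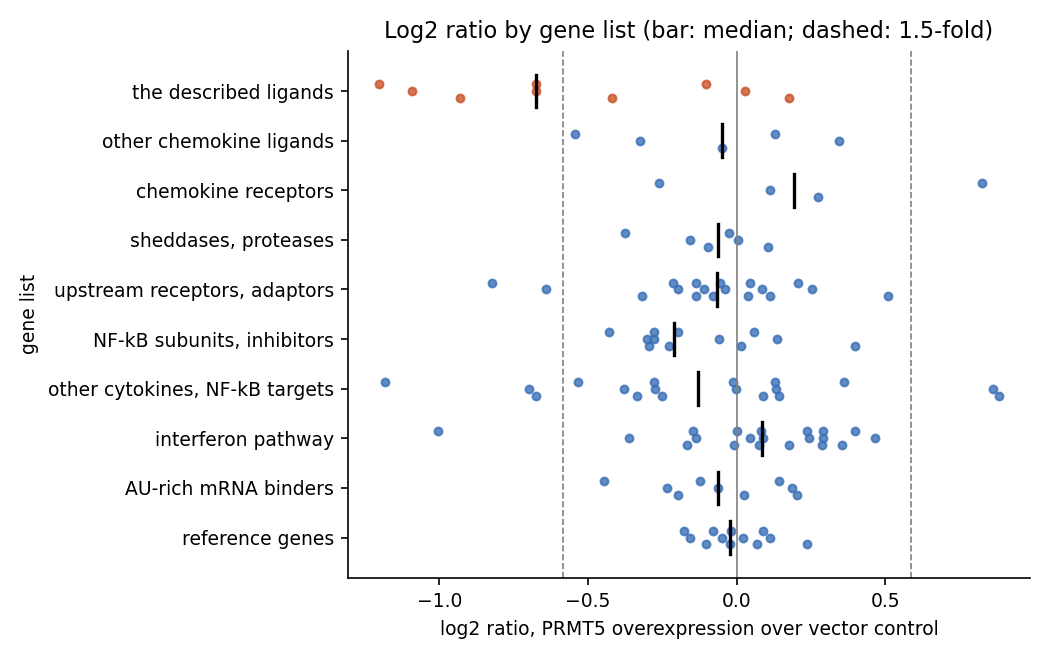
Log2 ratio of each gene past the read floor by list (points), with list medians (bars) and the 1.5-fold lines (dashed); the described ligands are in orange. The described ligands have a median of -0.68, and the medians of the other lists plotted lie between -0.21 and 0.19. The ligands were chosen on these ratios, so nothing is read from the difference. The lists of markers of other cell types, with medians of -1.20 for leukocytes, -1.21 for fibroblasts and -0.35 for endothelium, are not plotted.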

How the data were processed

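One library per group was compared, the vector control and PRMT5 overexpression. The submitters' processing notes name CASAVA 1.8, HISAT2 2.1.0 and StringTie 1.3.4b besides edgeR, and GRCh38 (hg38), but give no roles. The sources used here do not say whether counting used strand. The authors deposited raw counts and FPKM per gene, and 0 per-sample columns were left unused. The deposited FPKM used the summed length of distinct exons (GENCODE release 29) within 1% for 92.3% of 11451 genes with over 100 reads in both libraries.

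Counts of the same symbol were summed and scaled by TMM (edgeR 4.0.16, R 4.3.3; DESeq2 1.42.0 for the alternative), with factors of 1.01 and 0.990 from genes that reached 10 reads in either library. No test was run. The calculation was checked on simulated Poisson counts, which hold counting error only, so the check does not cover variation between libraries. The ligands and lists were chosen with earlier results of these data known. All 10 ligands, PRMT5, the 5 best-read genes of each list and those 1.5-fold apart could be named. Genes with 0 or few reads, NFKB1, REL, RELA, BCL3, NFKBIB, NFKBIZ, BIRC3, IFNGR1, ICAM1, PTPRC, CD3E and the AU-rich binders, among others, were named outside that rule after their values were seen. Python 3.11.15, scipy 1.17.1 and matplotlib 3.10.9 were used.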

Additional observations from a re-analysis of the deposited data

How the results depend on the processing

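Of 61 values recomputed for single ligands under other prior counts, scalings, row choices, FPKM and the sum with MED11, 60 stayed within the counting interval, 0 changed direction among those called, and 1 moved: CXCL3 was at -0.52 with deposited FPKM and a pseudocount of 1, which shrinks low values by construction. With that setting 3 ligands were at least 1.5-fold lower in place of 5, and the median was -0.35. With a threshold of 2-fold 2 ligands were lower, and with no floor on reads 1 ligand, CCL20, was higher. With a prior count of 5 or a floor of 50 reads 4 were lower. At that floor 2.55% of genes were lower. Over all genes, the 947 lower and 1255 higher became 223 and 326 with FPKM, 4346 and 4917 when no floor applied, 348 and 442 at a floor of 50 reads, 602 and 571 among protein-coding genes, and 344 and 516 at 2-fold; stricter settings hold fewer genes by construction. In the vector control library 4 of the 10 ligands kept their place in the order of levels per kilobase of the longest transcript, and 3 per kilobase of the main coding transcript. The main transcript and the sum with MED11 were chosen after seeing the data. At this depth the counting intervals of CXCL2, CXCL10, CXCL16, CCL20 and CCL28 include 0. No paired analysis was possible because there was a single library in each group.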

Other observations

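Genes that share the sequence features of the ELR ligands were described with the ligands left out. Of 62 measured genes with GGAATTTCC in a RefSeq promoter, 2 were at least 1.5-fold lower and 2 higher, which is 3.23% each way, and the median log2 ratio was -0.06. Over all 17777 measured genes 5.33% were lower and 7.06% higher. Of 1117 measured genes with the nonamer TTATTTATT in the 3′ untranslated region, 39 were lower and 37 higher, with a median of -0.03. These were 3.49% and 3.31%. Among 256 genes with 2 or more nonamers, 7 were lower (2.73%) and 10 higher (3.91%), with a median of -0.01. The nonamer lists hold protein-coding genes only, whereas the shares over all measured genes include other gene types, so they are not like for like.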
